A study of Mus musculus with 20 samples.

Results

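The aryl hydrocarbon receptor genes and the Cyp1 genes it is known to induce were followed across the livers of 5 inbred mouse strains. They were the 7 genes Ahr, Ahrr, Arnt, Cyp1a1, Cyp1a2, Cyp1b1 and Tiparp, taken by gene name from the scanner files, where they were 7 of 34632 gene names and were read by 12 non-control probes. The samples were livers of male mice on a high-fat diet (45% fat), with 4 mice per strain and 1 single-colour Agilent array per mouse. The strains were NZO (NZO/HiBomDife, obese and diabetes susceptible), DBA (DBA/2J, diabetes susceptible), B6 (C57BL/6, lean and diabetes resistant), 129Ola (129P2/OlaHsd, lean and diabetes resistant) and C3H (C3HeB/FeJ, diabetes susceptible). All 5 groups shared this diet, and the labels name no receptor ligand given to any mouse. The labels give week 6 both as an age and as the end of the diet, so the time on the diet is not settled.

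The aryl hydrocarbon receptor, encoded by Ahr, is a ligand-activated transcription factor that waits in the cytosol in a complex with chaperones. On binding a ligand such as a dioxin, a polycyclic hydrocarbon or a tryptophan metabolite it enters the nucleus, pairs with ARNT, the protein of Arnt, and binds dioxin response elements in DNA. Liver is a main site of this response: Cyp1a1 is nearly silent there until a ligand arrives, whereas Cyp1a2 is expressed constitutively by hepatocytes, more around the central vein, and is induced further. Ahrr encodes a repressor of the receptor and Tiparp an ADP-ribosyltransferase that also restrains it, and both are themselves induced by it. Inbred mice carry different Ahr alleles. C57BL/6 has the high-affinity b1 allele and C3H strains the high-affinity b2 allele, whereas DBA/2 and 129P2/OlaHsd mice carry the low-affinity d allele, which has a valine in place of an alanine in the ligand-binding domain. The allele of NZO is not given in the sources used here, so NZO was put in neither class. The alleles are background on the strains and were not measured on these arrays.

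The receptor's dimer with ARNT recognises a core of 5 bases, GCGTG, which reads CACGC on the other strand. Both strands of RefSeq promoter windows (GRCm38.p6, from 250 bases before to 50 bases after the annotated start) were searched for it. Windows were found for 6 of the 7 genes. The windows of the neighbouring genes Cyp1a1 and Cyp1a2 are shown because the probe of Cyp1a2 was above background in every liver and that of Cyp1a1 in few; capitals mark the core, and each sequence is written along its gene's strand.
Cyp1a1, chr9:57697363-57697662, plus strand: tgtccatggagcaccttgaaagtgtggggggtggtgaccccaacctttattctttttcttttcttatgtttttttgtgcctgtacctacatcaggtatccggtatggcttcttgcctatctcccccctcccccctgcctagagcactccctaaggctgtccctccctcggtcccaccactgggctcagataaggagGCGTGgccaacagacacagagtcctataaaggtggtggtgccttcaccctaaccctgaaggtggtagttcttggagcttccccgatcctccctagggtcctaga
Cyp1a2, chr9:57683606-57683905, minus strand: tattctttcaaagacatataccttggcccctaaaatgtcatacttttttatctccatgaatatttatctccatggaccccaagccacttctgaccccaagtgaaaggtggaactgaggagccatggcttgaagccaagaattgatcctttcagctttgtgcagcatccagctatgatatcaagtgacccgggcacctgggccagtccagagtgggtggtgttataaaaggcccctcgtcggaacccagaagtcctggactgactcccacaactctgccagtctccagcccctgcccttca
The Cyp1a1 window held 1 copy, starting 54 bases before the annotated start, and the Cyp1a2 window held none. Of the other windows, that of Ahrr held 3 copies, at -107, -82 and -27, and those of Cyp1b1, Tiparp and Arnt held 1 each, at -76, -170 and -29. A core this short is common: 32.39% of all 32851 windows of the same length held at least 1 copy and 3.91% at least 3. The receptor's best-known sites near Cyp1a1 lie further upstream than this window, and the absence of these letters says nothing of binding elsewhere.

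**Figure D1:**
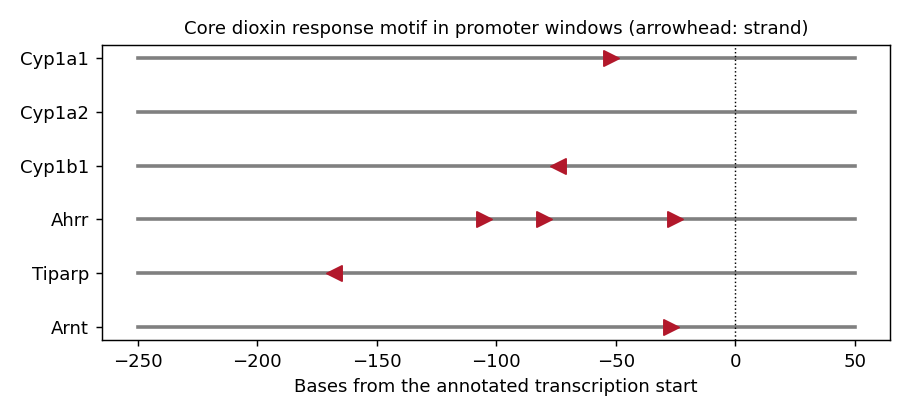
Positions of the 5-base core in 6 promoter windows. The x axis is the distance in bases from the annotated start, each grey line is 1 window, and an arrowhead marks a copy and points along the strand that reads it. Ahrr has 3 copies, Cyp1a2 has none, and the other 4 windows have 1 each.

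Levels below are log2 processed signal minus the 75th percentile of all non-control probes on the same array, so a level of 0 is a signal as bright as that percentile; a level of 1 probe is compared only with the same probe in other mice. A probe was tested if the scanner software marked it as well above background in every mouse of some strain, and the brightest probe stood for its gene. By this rule 7 of the 12 probes and 4 of the 7 genes (Ahr, Arnt, Cyp1a2 and Tiparp) were tested, among 20609 genes. Differences are limma estimates with their standard error (SE), two-sided, with Benjamini-Hochberg adjustment over all genes and a threshold of 0.05. Mice are separate animals by their labels, and fewer cells of a type cannot be told apart from less RNA per cell in whole liver. Sequence variants between strains under a probe can change its signal, and they were not tested for any probe.

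The arrays fell into batches that matter for these genes. NZO, DBA and B6 arrays were read with 1 version of the scanner software, Agilent Feature Extraction, and 129Ola and C3H arrays with a later one, per the file headers. The share of probes well above background was 49.2 to 53.9% in NZO, 50.2 to 53.3% in DBA, 51.9 to 59.0% in B6, 40.0 to 43.3% in 129Ola and 43.2 to 46.8% in C3H. Strains from different software versions therefore cannot be told apart from the versions, and 129Ola and C3H, each scanned on a day of its own and on slides of its own, cannot be told apart from their scan days. NZO, DBA and B6 shared 2 scan days. Values within each day are given for comparisons of Cyp1a2, Ahr, Arnt and Tiparp, and for no other genes. These rest on 1 DBA mouse a day and on 3 and 1 NZO mice, each time against 2 B6 mice, and the other 2 DBA mice were scanned on a day that no other strain shares. Over all genes, 18.3% passed the threshold between NZO and B6 (9.71% higher, 8.57% lower), 15.4% between DBA and B6 (7.27% higher, 8.09% lower), 18.0% between NZO and DBA (9.76% higher, 8.28% lower) and 37.9% between 129Ola and C3H (22.6% higher, 15.3% lower). For the mean of DBA minus B6 and 129Ola minus C3H, the contrast of low-affinity with high-affinity Ahr strains, it was 28.1% (16.0% higher, 12.1% lower). The split by direction depended on the scaling: with the percentile taken over probes above background on all arrays, 1557 genes were higher and 2455 lower in NZO than in B6 (main setting 2002 and 1766), 2581 and 4529 between 129Ola and C3H (4651 and 3161), and 1786 and 3738 between low- and high-affinity strains (3291 and 2497).

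Cyp1a2 differed most among the members, and its high level belonged to DBA. The gene encodes the main constitutive CYP1 enzyme of liver, which oxidises caffeine, aromatic amines and oestrogens. It was read by 1 probe, on which every Cyp1a2 value rests, and strain variants under that probe were not tested. Its level was 3.82, 4.05, 4.24 and 3.95 in the 4 NZO mice, 6.72, 6.73, 6.61 and 6.68 in the 4 DBA mice and 4.53, 4.35, 4.54 and 4.39 in the 4 B6 mice. It was 5.18, 5.29, 4.74 and 4.89 in the 4 129Ola mice and 4.36, 4.66, 4.69 and 4.63 in the 4 C3H mice. All DBA mice lay above all other mice, all NZO mice lay below all others, B6 and C3H overlapped, and all 129Ola mice lay above all C3H mice.

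DBA averaged 6.69 ± 0.06 and B6 4.45 ± 0.10 (SD, n = 4 each), a difference of 2.23 (SE 0.12), or 4.7-fold, with an adjusted p of 2.6e-10. Within scan days the difference was 2.23 and 2.18. NZO averaged 4.02 ± 0.18 and lay 0.44 below B6 (SE 0.12, adjusted p = 0.0148), with differences of -0.36 and -0.49 within the 2 scan days. That call was lost without NZO mouse 3 (difference -0.37, adjusted p = 0.0555). Against DBA, NZO was lower by 2.67 on the log2 scale (SE 0.12), or 6.36-fold, with an adjusted p of 2.71e-11; within days the difference was -2.60 and -2.68.

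In the second pair of strains Cyp1a2 averaged 5.02 ± 0.25 in 129Ola and 4.58 ± 0.15 in C3H (SD, n = 4 each). The difference of 0.44 (SE 0.12, adjusted p = 0.00826) was smaller than that between DBA and B6 by 1.79 (SE 0.17, adjusted p = 3.98e-07 for the difference of the differences). It also depended on the scaling: it was 0.28 (adjusted p = 0.0619) with normexp background correction, 0.26 (adjusted p = 0.128) with quantile normalization and 0.28 (adjusted p = 0.093) with the percentile over probes above background on all arrays. In the authors' deposited value table the difference, refitted the same way, was 0.22 (adjusted p = 0.153). The size of the DBA to B6 difference was 1.97 to 2.26 under all 31 alternatives.

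**Figure D2:**
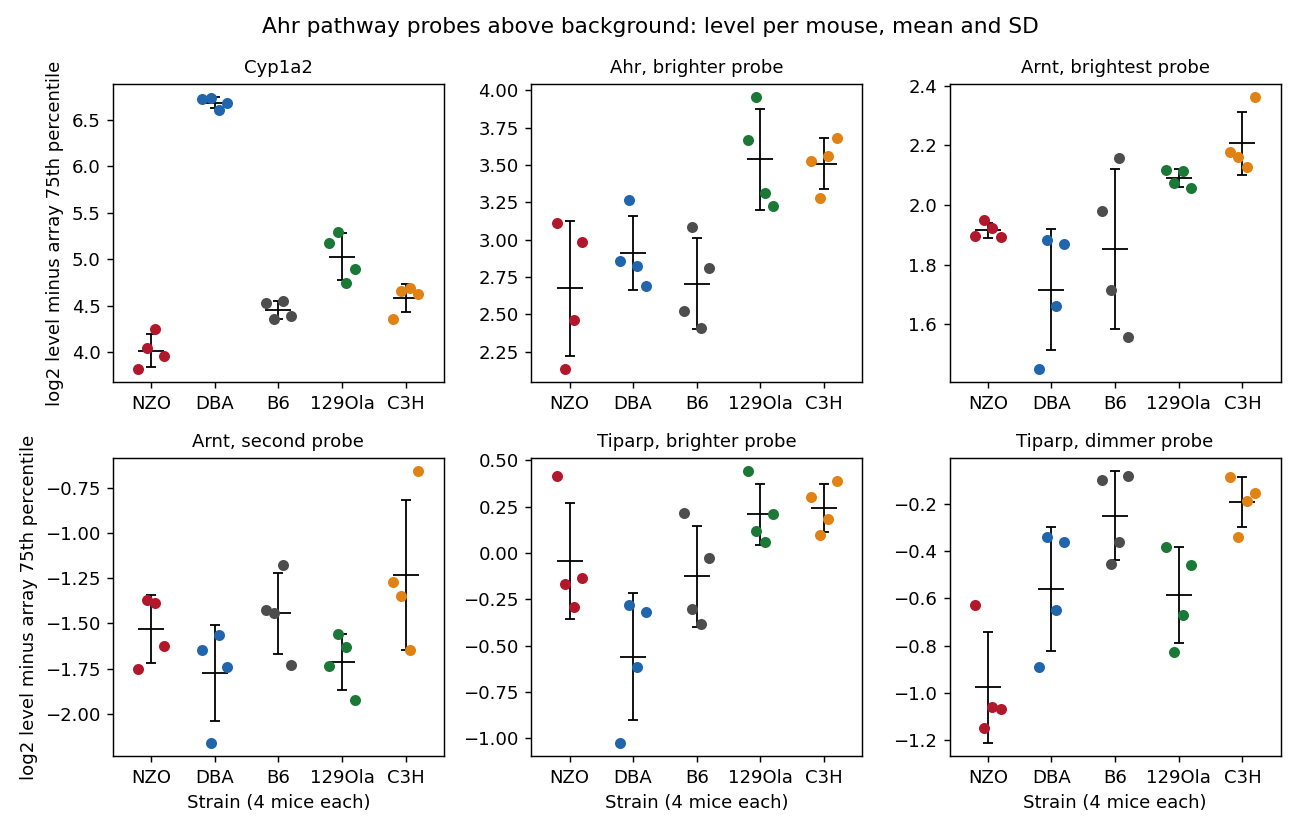
Level of 6 tested probes in each mouse, by strain. The y axis is log2 level minus the array's 75th percentile, points are mice, and bars are the mean and SD of 4 mice. Cyp1a2 in DBA mice lies between 6.61 and 6.73, above every other mouse, while the 2 Tiparp probes order the strains differently.

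Ahr itself, whose protein is the ligand sensor, was detected in every mouse and did not pass the threshold in any comparison within a software version. Its brighter probe (chr12:36182724-36182783, mm9, minus strand) read 3.11, 2.14, 2.46 and 2.98 in NZO, 2.85, 3.26, 2.82 and 2.69 in DBA and 2.52, 3.08, 2.41 and 2.81 in B6. It read 3.67, 3.95, 3.31 and 3.22 in 129Ola and 3.53, 3.28, 3.56 and 3.68 in C3H. NZO, DBA and B6 overlapped one another, and 129Ola and C3H overlapped each other. DBA minus B6 was 0.20 (95% interval -0.25 to 0.66, adjusted p = 0.639) and 129Ola minus C3H was 0.03 (-0.43 to 0.48, adjusted p = 0.929). NZO minus B6 was -0.03 (-0.49 to 0.42, adjusted p = 0.946) and NZO minus DBA was -0.23 (-0.69 to 0.22, adjusted p = 0.535). Within the 2 scan days DBA minus B6 was -0.12 and 0.39, NZO minus B6 -0.09 and -0.33, and NZO minus DBA 0.03 and -0.72.

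Across software versions the Ahr means were higher in 129Ola (3.54 ± 0.34) and C3H (3.51 ± 0.17) than in NZO (2.67 ± 0.45), DBA (2.91 ± 0.25) and B6 (2.70 ± 0.30). The 6 such pairs differed by 0.60 to 0.87 in size, each past the threshold (adjusted p = 0.0029 to 0.0393), but strain and version cannot be told apart there. With normexp correction the Ahr difference between 129Ola and B6 was 0.37 (adjusted p = 0.0713) and that between 129Ola and DBA was 0.15 (adjusted p = 0.45). The other Ahr probe (chr12:36188523-36188582) was above background on 2 NZO, 3 DBA, 4 B6, 0 129Ola and 0 C3H arrays, and none of its comparisons passed.

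Arnt, the obligatory partner of the receptor and of the hypoxia factors, did not pass within a software version on its brightest probe. This probe (chr3:95301081-95301140, mm9) averaged 1.92 ± 0.03 in NZO, 1.72 ± 0.20 in DBA, 1.85 ± 0.27 in B6, 2.09 ± 0.03 in 129Ola and 2.21 ± 0.11 in C3H (SD, n = 4 each). The differences within a version lay between -0.14 and 0.20. Within the 2 scan days DBA minus B6 was 0.03 and -0.62, NZO minus B6 0.27 and -0.12, and NZO minus DBA 0.24 and 0.50. Across versions DBA minus C3H was -0.49 (adjusted p = 0.00378), 129Ola minus DBA 0.37 (adjusted p = 0.0135) and C3H minus B6 0.35 (adjusted p = 0.0252), where strain and version cannot be told apart. With normexp correction only the first of these passed (-0.34, adjusted p = 0.0131). A second probe (chr3:95299434-95299493) was lower by 0.48 in 129Ola than in C3H (SE 0.18, adjusted p = 0.0498 over 28417 probes), where 129Ola mice read -1.74, -1.56, -1.63 and -1.92 and C3H mice -1.27, -1.35, -1.65 and -0.66. The 2 groups overlapped, and the call was lost in 22 of 28 alternatives. On this probe low-affinity minus high-affinity strains, the mean of DBA minus B6 and 129Ola minus C3H, was -0.41 (SE 0.13, adjusted p = 0.0282), lost in 9 of 27 alternatives. The third probe, for another transcript (chr3:95264558-95264617), was above background on 7 of 20 arrays and was not tested.

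**Figure D3:**
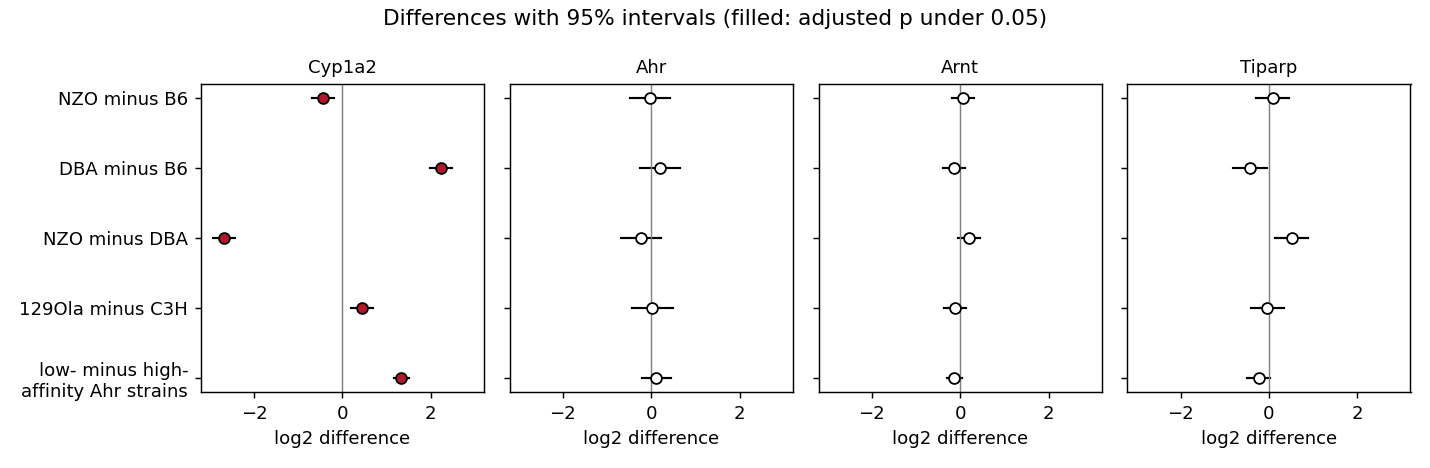
Log2 differences for the 4 tested genes, with 95% intervals. The x axis is the first strain minus the second, rows are the 5 comparisons, and filled points have an adjusted p under 0.05. Cyp1a2 is filled in all 5 rows, from -2.67 for NZO minus DBA to 2.23 for DBA minus B6, and Ahr, Arnt and Tiparp are open in all.

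Tiparp, the feedback ADP-ribosyltransferase, gave 2 readings that disagreed. The brighter probe (chr3:65358749-65358808, mm9) averaged -0.04 ± 0.31 in NZO, -0.56 ± 0.34 in DBA, -0.12 ± 0.27 in B6, 0.21 ± 0.17 in 129Ola and 0.24 ± 0.13 in C3H (SD, n = 4 each). No comparison within a software version passed on it: NZO minus DBA was 0.51 (SE 0.18, adjusted p = 0.0557), with 0.61 and 0.86 within scan days, and DBA minus B6 was -0.43 (SE 0.18, adjusted p = 0.126). Across versions, where strain and version cannot be told apart, 129Ola minus DBA was 0.77 (adjusted p = 0.00186) and DBA minus C3H -0.80 (adjusted p = 0.0024). The dimmer probe (chr3:65357710-65357769) read -0.63, -1.15, -1.06 and -1.07 in NZO, -0.89, -0.34, -0.65 and -0.36 in DBA, -0.10, -0.46, -0.36 and -0.08 in B6, -0.38, -0.83, -0.67 and -0.46 in 129Ola and -0.08, -0.34, -0.19 and -0.15 in C3H. All NZO mice lay below all B6 mice, and all 129Ola mice lay below all C3H mice. On it NZO was lower than B6 by 0.73 (SE 0.15, adjusted p = 0.00163), with -0.65 and -0.92 within scan days, and 129Ola was lower than C3H by 0.39 (SE 0.15, adjusted p = 0.0454), a call lost in 14 of 28 alternatives. Low- minus high-affinity strains differed by -0.35 (SE 0.10, adjusted p = 0.0187) on it. On the brighter probe the same 2 differences were 0.08 (adjusted p = 0.805) and -0.03 (adjusted p = 0.896), so no direction is given for the gene.

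Cyp1a1, the prototype induced target, was at the edge of detection. Its probe (chr9:57551535-57551594, mm9) was well above background on 0 of 4 NZO, 1 of 4 DBA, 3 of 4 B6, 0 of 4 129Ola and 0 of 4 C3H arrays, so it entered no test. The levels were -5.86, -5.22, -4.96 and -4.28 in NZO, -3.97, -4.19, -3.79 and -4.55 in DBA, -4.75, -3.50, -4.14 and -3.32 in B6, -4.01, -4.49, -5.01 and -4.89 in 129Ola and -5.41, -5.40, -4.99 and -5.33 in C3H. DBA and B6 overlapped. With no filter on dim probes NZO minus B6 passed (adjusted p = 0.0399 over 55642 probes, measured means -5.08 and -3.93), but no NZO mouse was well above background, so the NZO side is only a bound and no fold is given.

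Cyp1b1, which encodes a CYP1 enzyme found mostly outside hepatocytes, was above background on 1 of 4 arrays in NZO, DBA, B6 and 129Ola each and on 0 of 4 in C3H. Its probe (chr17:80106547-80106606, mm9) read from -5.31 to -2.39 over the 20 mice. Ahrr, the repressor, was above background in none of the 20 mice on either probe (chr13:74350685-74350744, and chr13:74348566-74348612 where the mapped span is 47 bases). Array signal this close to background sets a bound only, and no level is compared for these genes.

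**Figure D4:**
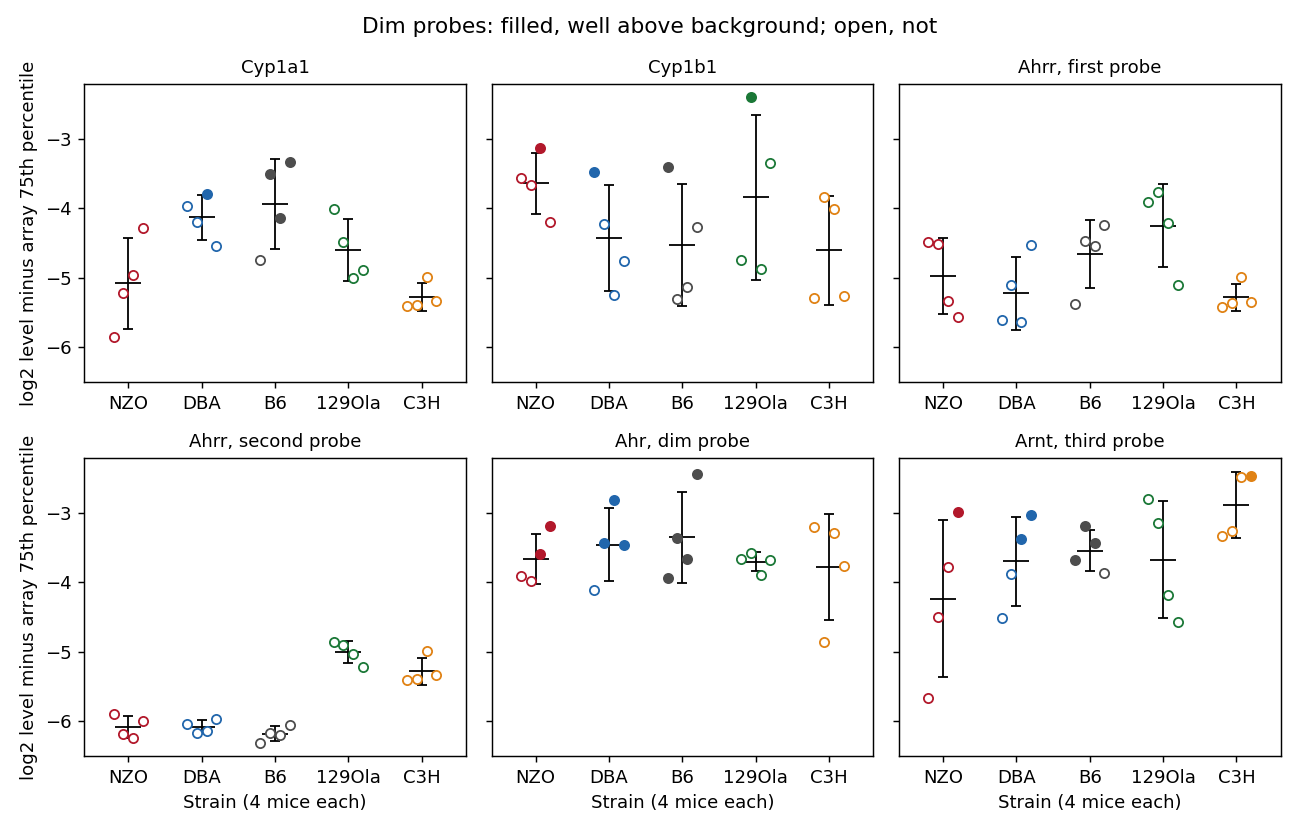
Level of 6 dim probes in each mouse, by strain. The y axis is log2 level minus the array's 75th percentile; filled points are well above background, open points are not, and bars are the mean and SD of 4 mice. Cyp1a1 has 3 filled points in B6, 1 in DBA and none elsewhere, and both Ahrr probes have none.

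Set against the known alleles, Cyp1a2 was higher in the low-affinity strain of both pairs, and Ahr was not called in either. The Cyp1a2 call between 129Ola and C3H was lost in 6 of 30 alternatives, most of which only leave out 1 mouse and kept it. It was lost with normexp, quantile normalization, the other percentile and the authors' table, and with the slide or the animal number as a block. The mean of DBA minus B6 and 129Ola minus C3H, in which an additive shift between software versions cancels, was 1.34 for Cyp1a2 (SE 0.08, adjusted p = 2.95e-09), 0.12 for Ahr (SE 0.15, adjusted p = 0.602), -0.13 for Arnt (SE 0.08, adjusted p = 0.269) and -0.23 for Tiparp (SE 0.13, adjusted p = 0.179). Shifts between the scan days and slides of 129Ola and C3H do not cancel in this mean. The test over mice compares these 4 strains and not the alleles, whose replicate is the strain. Over the 4 strain means, Cyp1a2 averaged 5.86 in the low-affinity and 4.52 in the high-affinity strains, which gave a two-sided exact permutation p of 0.333, the smallest that 2 strains against 2 allow. The 2 low-affinity strains also differed from each other: 129Ola was lower than DBA by 1.66 (adjusted p = 8.68e-09), across software versions. The 2 high-affinity strains overlapped, with C3H minus B6 at 0.13 (adjusted p = 0.422). NZO, with no allele assigned, lay below all 4. In order of means in the main setting, across software versions, DBA was followed by 129Ola, C3H, B6 and NZO. Among neighbours in that order C3H and B6 did not pass. With normexp correction B6 lay above C3H (C3H minus B6 -0.07, adjusted p = 0.608).

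The other genes of the pathway were counted from lists chosen with earlier results of these data known. Over all genes, 18.3% passed between NZO and B6 and 15.4% between DBA and B6. The share was 37.9% between 129Ola and C3H and 28.1% between low- and high-affinity strains. In the cytosolic complex, 4 of 5 listed genes were tested and none passed in any of the 5 comparisons. Of the classic battery, the enzymes induced together with CYP1, 4 of 5 were tested. Nqo1, a quinone reductase, passed nowhere, with differences of -0.24 to 0.24. Ugt1a6b, a glucuronosyltransferase, averaged 8.49 ± 0.17 in NZO, 8.47 ± 0.11 in DBA, 8.06 ± 0.09 in B6, 8.45 ± 0.12 in 129Ola and 7.96 ± 0.08 in C3H. It was higher by 0.43 in NZO than in B6 (adjusted p = 0.0029), by 0.41 in DBA than in B6 (adjusted p = 0.00488) and by 0.49 in 129Ola than in C3H (adjusted p = 0.000721). Ugt1a6a was higher by 0.75 in 129Ola than in C3H (SE 0.24, adjusted p = 0.0223), a call lost without C3H mouse 1 (0.70, adjusted p = 0.0551), 129Ola mouse 5 (0.66, adjusted p = 0.066) or 129Ola mouse 7 (0.59, adjusted p = 0.0727). With normexp correction it was 0.31. In the main setting DBA minus B6 for Ugt1a6a was 0.65 (adjusted p = 0.081). Transcripts of the Ugt1a locus share their later exons, so the assignment of both to 1 gene is uncertain. Aldh3a1, an aldehyde dehydrogenase, was higher in NZO than in B6 by 0.42 (SE 0.11, adjusted p = 0.0114) and passed in no other comparison. Between low- and high-affinity strains 2 of the 4 were higher, Ugt1a6a by 0.70 (SE 0.17, adjusted p = 0.00559) and Ugt1a6b by 0.45 (SE 0.07, adjusted p = 7.18e-05).

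Of 18 other genes that receptor ligands induce in mouse liver, 15 were tested. None was higher and 3 were lower in DBA than in B6 (Gsta2, Xdh and Lpar6), with a median difference of -0.09 against 0.01 over all genes. In NZO against B6, 1 was higher and 1 lower, and in 129Ola against C3H, 7 were higher and 3 lower, with a median of 0.41 against 0.08 over all genes. Between low- and high-affinity strains 3 were higher and 2 lower, where 28.1% of all genes passed. The share over all genes was 15.4% for DBA minus B6, 18.3% for NZO minus B6 and 37.9% for 129Ola minus C3H. Gsta2, a glutathione transferase gene that also answers to the oxidative-stress factor NRF2, moved most. It averaged -3.06 ± 0.65 in NZO, -0.63 ± 0.66 in DBA, 1.13 ± 0.21 in B6, 3.11 ± 0.31 in 129Ola and -2.37 ± 0.48 in C3H. It was thus lower by 1.75 in DBA than in B6 (SE 0.33, adjusted p = 0.000904) and higher by 5.47 in 129Ola than in C3H (SE 0.33, adjusted p = 1.26e-09), so the 2 low-affinity strains lay on opposite sides of their high-affinity partners. With normexp correction the 129Ola minus C3H difference of Gsta2 was 3.24. Slc46a3, a lysosomal transporter gene, was lower by 1.39 in 129Ola than in C3H (adjusted p = 8.8e-06). It was higher by 0.61 in NZO than in B6 (adjusted p = 0.0181), a call lost without B6 mouse 10 (0.55, adjusted p = 0.058), without NZO mouse 11 (0.51, adjusted p = 0.0629) and in the authors' deposited value table, refitted the same way (0.43, adjusted p = 0.053).

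Among 13 genes for the electron partners and the haem of CYP enzymes, all tested, 3 were higher and 2 lower in DBA than in B6, 2 higher and 3 lower in NZO than in B6, and 6 higher and 2 lower in 129Ola than in C3H. Over all genes 15.4%, 18.3% and 37.9% passed, in that order. Alad, which encodes the second enzyme of haem synthesis, was higher by 1.62 in DBA than in B6 (SE 0.10, adjusted p = 1.78e-09) and by 0.98 in NZO than in B6 (adjusted p = 1.18e-06), and lower by 0.94 in 129Ola than in C3H (adjusted p = 1.6e-06). Por, the reductase that feeds electrons to CYP enzymes, was higher by 1.55 in 129Ola than in C3H (SE 0.30, adjusted p = 0.000765), and DBA minus B6 was -0.17 (adjusted p = 0.798). Hmox1, which degrades haem, was lower by 1.34 in DBA than in B6 (SE 0.24, adjusted p = 0.000545) and by 0.91 in NZO than in B6 (adjusted p = 0.012). Of 4 red cell markers, 1 was higher in NZO than in B6, 1 higher in DBA than in B6 and 3 lower in 129Ola than in C3H. Their mean level was 4.45 in NZO, 3.69 in DBA, 3.61 in B6, 3.52 in 129Ola and 4.62 in C3H, and their part in the differences of haem genes was not tested.

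Enzymes that make or remove tryptophan-derived ligands were tested for 12 of 13 listed genes: 3 were higher and 3 lower in NZO than in B6, 1 higher and 2 lower in DBA than in B6, and 5 higher and 1 lower in 129Ola than in C3H. Over all genes 18.3%, 15.4% and 37.9% passed, in that order. Il4i1, an amino acid oxidase whose products activate the receptor, was lower by 2.13 in NZO than in B6 (SE 0.17, adjusted p = 4.79e-08) and by 0.74 in DBA than in B6 (adjusted p = 0.00457), and higher by 1.66 in 129Ola than in C3H (adjusted p = 9.47e-07). With normexp correction these Il4i1 differences were -1.11, -0.47 and 1.08. Aadat, the kynurenine aminotransferase, was well above background in all B6 and all 129Ola mice and in no NZO, DBA or C3H mouse. In the main setting Aadat was at least 2.53-fold lower in NZO than in B6 (adjusted p = 0.00194) and at least 2.55-fold lower in DBA than in B6 (adjusted p = 0.00135). It was at least 2.59-fold higher in 129Ola than in C3H (adjusted p = 1.03e-06). The dim group's bound was the lowest signal called above background, or the probe's own where higher. These bounds hold for that setting only. Over all settings the Aadat log2 difference ran from -1.85 to -0.20 for NZO minus B6. It ran from -2.04 to -0.33 for DBA minus B6 and from 0.63 to 4.15 for 129Ola minus C3H. Qprt, the enzyme that takes quinolinate towards NAD, was higher by 0.50 in NZO than in B6 (adjusted p = 7.91e-05) and by 0.67 in 129Ola than in C3H (adjusted p = 2.58e-06).

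Of 8 tested members among 13 partners and relatives of ARNT, none passed between NZO and B6, 1 was lower in DBA than in B6, and 1 was higher and 1 lower in 129Ola than in C3H. The gene lower in DBA was Arntl2, a clock-factor relative of ARNT, by 1.78 (SE 0.28, adjusted p = 0.000134), or by 0.88 with normexp correction. Of 10 coregulators of the receptor, all tested, 3 were higher and 1 lower in DBA than in B6, 1 was lower in NZO than in B6, and 3 were higher and 2 lower in 129Ola than in C3H. For both lists the share over all genes was 15.4% for DBA minus B6, 18.3% for NZO minus B6 and 37.9% for 129Ola minus C3H. Relb, an NF-kB subunit that can pair with the receptor, was lower in all 3: by 0.74 in NZO than in B6 (adjusted p = 0.0239), by 1.07 in DBA than in B6 (adjusted p = 0.00189) and by 0.70 in 129Ola than in C3H (adjusted p = 0.0188). The NZO minus B6 call was lost without B6 mouse 11 (-0.59, adjusted p = 0.0842), NZO mouse 3 (-0.67, adjusted p = 0.0742) or NZO mouse 9 (-0.72, adjusted p = 0.05). The 129Ola minus C3H call was lost without C3H mouse 1 (-0.43, adjusted p = 0.057) or 129Ola mouse 7 (-0.60, adjusted p = 0.0547) and with normexp correction (-0.28, adjusted p = 0.104).

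Other drug-sensing receptors and their prototype targets, counted as 1 list, also differed between these strains. Of its 10 genes, receptors and targets together, all were tested. Of these, 4 were higher and none lower in DBA than in B6, 2 higher and 2 lower in NZO than in B6, and 6 higher and 1 lower in 129Ola than in C3H. Beside these counts, 15.4%, 18.3% and 37.9% of all genes passed, in that order. Cyp2b10, the prototype target of the receptor CAR, averaged 1.11 ± 0.66 in NZO, -1.54 ± 0.79 in DBA, -4.92 ± 1.34 in B6, 0.01 ± 0.33 in 129Ola and -2.06 ± 1.34 in C3H, where it was above background on 4, 4, 1, 4 and 2 arrays in that order. It was higher by 6.04 in NZO than in B6 (adjusted p = 2.21e-06), by 3.39 in DBA than in B6 (adjusted p = 0.00103) and by 2.07 in 129Ola than in C3H (adjusted p = 0.019). These sizes rest partly on signals that were not above background: with normexp correction they were 2.43, 0.76 and 0.79. The call between 129Ola and C3H was lost without C3H mouse 1 (1.67, adjusted p = 0.0667) or C3H mouse 3 (1.76, adjusted p = 0.0612). The mean of Cyp2b10 was highest in NZO, where that of Cyp1a2 was lowest, across software versions. Other genes of the list took other directions. Nr1i3, the gene of CAR itself, was lower by 0.99 in NZO than in B6. It was higher by 0.65 in DBA than in B6, and also higher in 129Ola than in C3H. Cyp2c55 was lower by 3.17 in NZO than in B6, a difference that ran from -3.35 to -1.09 over all settings. In the main setting it was at least 2.08-fold lower in 129Ola than in C3H (adjusted p = 0.000856). That log2 difference ran from -2.85 to -0.22 over all settings, and the call was lost in 2 of 29 alternatives. Its DBA minus B6 difference of 0.37 did not pass.

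The livers carried hepatocyte markers, and markers of the pericentral region, where Cyp1a2 is expressed, passed in directions that depended on the comparison. The mean level of 6 hepatocyte markers lay between 8.19 and 8.57 in every mouse. Over all genes, 15.4% passed for DBA minus B6, 18.3% for NZO minus B6 and 18.0% for NZO minus DBA. The share was 37.9% for 129Ola minus C3H and 28.1% for low- minus high-affinity strains. Of 10 tested pericentral markers, 3 were higher (Rhbg, Lect2 and Aldh1a1) and 1 lower (Glul) in DBA than in B6, with a median difference of 0.09 against 0.01 over all genes. In NZO against B6 1 was higher and 1 lower, with a median of -0.23, and in 129Ola against C3H 2 were higher, with a median of 0.05. In NZO against DBA none of these markers was higher and 4 were lower, with a median of -0.25. Between low- and high-affinity strains 4 of them were higher and none lower, with a median of 0.22. Their mean level per mouse ranged from 5.18 to 5.49 in NZO, 5.50 to 5.88 in DBA, 5.51 to 5.58 in B6, 5.51 to 5.96 in 129Ola and 5.53 to 5.80 in C3H. Of 9 periportal markers, none passed in NZO or DBA against B6 and 5 were higher in 129Ola than in C3H. Their mean level was 7.20 in NZO, 7.15 in DBA, 7.09 in B6, 7.40 in 129Ola and 6.48 in C3H. Of 9 Kupffer cell markers, 6 were lower in NZO and 5 lower in DBA than in B6, and 6 were higher and 1 lower in 129Ola than in C3H. The part of any of these in the Cyp1a2 differences was not tested.

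Neighbouring genes on the chromosome differed less than Cyp1a2 between DBA and B6. The 5 nearest tested genes on each side of it in the RefSeq gene order were chosen after the Cyp1a2 values were seen. Of these 10, 1 was called between DBA and B6 (Ubl7, lower by 0.44, SE 0.11, adjusted p = 0.0106), with a range over the 10 of -0.44 to 0.29. Over all genes 15.4% passed in that comparison. The nearest tested gene on 1 side, Csk, had a DBA minus B6 difference of 0.29 (adjusted p = 0.304), and on the other side Edc3 had -0.08 (adjusted p = 0.803). Between NZO and B6, where 18.3% of all genes passed, 1 of the 10 was called (Islr, lower by 1.33, adjusted p = 8.22e-06). Between 129Ola and C3H, where Cyp1a2 differed by 0.44 and 37.9% of all genes passed, 4 were called: Edc3 (0.44, adjusted p = 0.0285), Clk3 (0.36) and Arid3b (0.31) were higher and Lman1l (-1.13, adjusted p = 0.000405) was lower.

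The genes whose levels were most like Cyp1a2 were read over the 20 arrays, among 15189 genes above background on all of them. They were Rhbdf1 (Pearson r = 0.955), Snrnp25 (0.935), the probe named NAP111924-1 (0.932), Vars2 (0.931) and Gltpd2 (0.927). The points share their strain, array and scaling: within strains, r with Cyp1a2 was -0.01 for Rhbdf1, 0.51 for Snrnp25 and -0.11 for Vars2. Rhbdf1, which encodes an inactive rhomboid protein, averaged 0.79 ± 0.11 in NZO, 3.37 ± 0.09 in DBA, 1.25 ± 0.15 in B6, 1.23 ± 0.05 in 129Ola and 1.09 ± 0.16 in C3H. Snrnp25, for a protein of the minor spliceosome, averaged 2.79 ± 0.06, 5.02 ± 0.11, 2.33 ± 0.15, 3.02 ± 0.20 and 2.85 ± 0.11 in the same order. For both, every DBA mouse lay above every other mouse. Their probes lie close together on chromosome 11 (Rhbdf1 at chr11:32109587-32109646, Snrnp25 at chr11:32108717-32108776 and chr11:32108874-32108933, mm9), so the 2 are not separate loci. Cyp1a2 is on chromosome 9. For Ahr the 5 most alike were Vps9d1 (r = 0.867), Calm2 (0.867), Gnai3 (0.861), Rev3l (0.860) and Cldn12 (0.859), and for these the software version is among the things the points share. Among the 4 tested members, r within strains over 20 mice ranged from -0.20 to 0.33, given as a description.

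**Figure D5:**
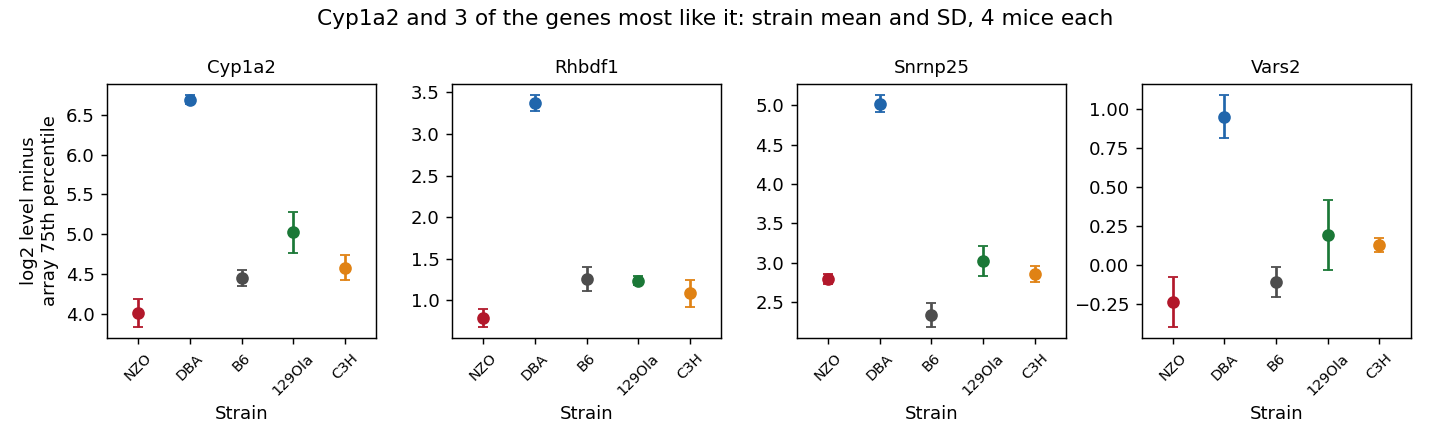
Mean and SD of 4 mice per strain for Cyp1a2 and 3 of the genes most like it, each panel with its own y axis in log2 level minus the array's 75th percentile. DBA is the highest strain in all 4 panels; Rhbdf1 averages 3.37 in DBA and 0.79 to 1.25 elsewhere.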

How the data were processed

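Total RNA of 20 mouse livers, 4 per strain in 5 strains, was labelled with Cy3 and hybridised to Agilent arrays; samples with an RNA integrity number above 8 were used, per the labels' protocols. The deposited scanner files hold, per spot, processed signal intensity, mean and background intensity and flags, made by the authors with Agilent Feature Extraction 11.0.1.1 or 11.5.1.1, per the file headers (9.1 per the submitters' processing notes), with probe positions on mm9. The signal is already background-subtracted, per the file headers. The authors' deposited value table (37892 probes) holds intensity that is not on a log scale; its columns share 1 set of values, as after quantile normalization, and it served only as an alternative.

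From these, spots of a probe were averaged after outlier spots were left out, log2 processed signal was taken minus each array's 75th percentile, and limma 3.58.1 in R 4.3.3 was fitted to all 20 arrays with a mean per strain (15 residual degrees of freedom), with Benjamini-Hochberg adjustment. The number of arrays limits the precision. The script was tested on simulated data. The genes named were all members, all tested genes of the classic battery, for each other list at most the 4 with the largest change past the threshold, and the 5 most alike for Ahr and Cyp1a2. Single cell type markers, the neighbours of Cyp1a2, Xdh, Lpar6 and Nr1i3 were named after their values were seen. Members and lists were chosen with earlier results of these data known. Alternatives were normexp, quantile scaling, another percentile, other filters, single probes, the authors' table, 1 software version, slide, scan day and animal number as blocks, and leaving out each mouse. Some items are not reported here.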

Additional observations from a re-analysis of the deposited data

Results flagged for a closer look

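On the dimmer Tiparp probe, NZO mouse 3 had a level of -0.63, whereas the other 3 NZO mice lay between -1.15 and -1.06. Its gap to the nearest of them was 0.8312 of the group's range, above Dixon's 95% critical value for 4 samples. 35 groups of 4 were tested in this way, and chance alone passes about 1 in 20.

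The difference in Cyp1a2 between the low-affinity and the high-affinity Ahr strain was not the same in the 2 pairs: 129Ola minus C3H less DBA minus B6 was -1.79 (SE 0.17, adjusted p = 3.98e-07 by limma's interaction contrast). Cyp1a2 was higher in 4 of 4 DBA mice than in any B6 mouse and in 4 of 4 129Ola mice than in any C3H mouse. The 2 pairs were read with different software versions, so pair and version cannot be told apart.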

How the results depend on the processing

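Cyp1a2 kept its direction and its call for DBA minus B6 and NZO minus DBA under 31 alternatives each (1.97 to 2.26 and -2.74 to -2.44) and for low-affinity minus high-affinity strains under 29 (1.09 to 1.38). NZO minus B6 was -0.42 (adjusted p = 0.262) with the animal number as a replicate block, and -0.51 to -0.37 with 1 mouse left out. 129Ola minus C3H for Cyp1a2 was 0.28 with normexp, 0.26 with quantile normalization, 0.28 with the percentile over probes above background on all arrays, 0.22 in the authors' table, 0.40 with slide as a random block and 0.32 with the replicate block, and 0.35 to 0.54 with 1 mouse left out; the cause was not tested. Ahr was called under none. With the percentile over probes above background on all arrays, Tiparp was called for DBA minus B6 (-0.49, adjusted p = 0.0453) and low- minus high-affinity strains (-0.34, adjusted p = 0.0336), and Arnt for 129Ola minus C3H (-0.28, adjusted p = 0.0492) and low- minus high-affinity strains (-0.24, adjusted p = 0.0273). That scaling moved the median of all genes from 0.08 to -0.09 for 129Ola minus C3H and from 0.04 to -0.06 for low- minus high-affinity strains. Tiparp was called for NZO minus DBA with that percentile (0.49), with only probes above background on all arrays (0.51) and with slide as a random block (0.59), and ranged from 0.36 to 0.61 with 1 mouse left out. The replicate block brought the genes past the threshold to 1274 for NZO minus B6, 1333 for DBA minus B6, 1530 for 129Ola minus C3H, 1333 for NZO minus DBA and 1527 for low- minus high-affinity strains. Deviations of same-numbered mice correlated at -0.34 to 0.38. These few pairs, with no differently numbered pairs beside them, cannot settle whether the numbers pair the mice. 129Ola minus C3H counted 4833 genes with normexp and 2886 with slide as a random block, where low- minus high-affinity strains counted 3023. Of 1176 recounts of the pathway lists, 110 moved by over 1.5 times. Where the main or the alternative value was called, the sign turned for Gltpd2 for 129Ola minus C3H (-0.034 with quantile normalization, -0.062 in the authors' table), and for low- minus high-affinity strains Cyp2c55 (0.011 with normexp) and Haao (-0.019 in the authors' table). Differences called in neither setting changed sign too. Among them were Ahr for 129Ola minus C3H (-0.18 to 0.27) and for NZO minus B6 (-0.18 to 0.16), and Tiparp for NZO minus B6 (-0.26 to 0.23). Scan day as a block gave no value for 129Ola minus C3H, nor a single software version for low- minus high-affinity strains. Signal near background limits Cyp1a1, Cyp1b1 and Ahrr.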
